A study of Mus musculus with 13 samples.

Results

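The miR-34 and miR-449 family was examined in small RNA libraries of the hippocampus and the prefrontal cortex (PFC) of TgR and FVB/N mice. Its members were all rows, of either arm, that the deposited counts list for the hairpins mmu-mir-34a, mmu-mir-34b, mmu-mir-34c, mmu-mir-449a, mmu-mir-449b and mmu-mir-449c. These gave 9 pairs of a hairpin and a mature miRNA out of 1514 pairs, and 6 hairpins out of 903. The family was chosen by its values in the hippocampal comparison of genotypes and in the difference between the regions. These values and their counts of calls are therefore given as a description, and the calls are not read as a test.

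TgR mice are FVB/N mice with hACHE-R overexpression, which means that they carry human AChE-R, the stress-inducible readthrough form of acetylcholinesterase, expressed constitutively from a minimal cytomegalovirus promoter-enhancer, and FVB/N mice are the wild type controls of the same strain. There were 3 libraries each of FVB/N hippocampus, TgR hippocampus and FVB/N PFC, and 4 of TgR PFC, each from 1 mouse. TgR mice differ among themselves in hyperactivity, and tissue was taken without regard to it. The ages at sequencing are not given in the sources used here, nor whether a hippocampal and a PFC library came from the same mouse. The transgene is an mRNA, and its level could not be checked in small RNA libraries.

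A miRNA is cut from a hairpin precursor, can be kept from its 5′ arm (5p) or its 3′ arm (3p), and recognizes mRNAs mainly through its seed, bases 2 to 8. Members of the miR-34 and miR-449 family share the seed of their 5p arms and can repress the same targets. The miR-34 miRNAs are known targets of the tumor suppressor p53. miR-34b/c and the miR-449 cluster are well known from cells with motile cilia, such as those that line the brain ventricles and the airways.

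The 5p arms are printed here because the family is defined by them, with the seed in capitals. RefSeq (GRCm38.p6) held the mature sequence of 7 of the 9 listed pairs, and 4 of these are 5p arms with the same seed.
miR-34a-5p: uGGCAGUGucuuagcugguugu
miR-34b-5p: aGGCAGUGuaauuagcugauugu
miR-449a-5p: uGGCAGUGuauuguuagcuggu
miR-449c-5p: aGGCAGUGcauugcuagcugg
No other of the 1679 mature mouse miRNAs in the RefSeq table had this seed. Outside it the arms differed more, by 4 edits (substitutions, insertions or deletions) between miR-34a-5p and miR-34b-5p and between miR-449a-5p and miR-449c-5p, and by 6 or 7 edits between any miR-34 and any miR-449 arm printed. miR-34c-5p and miR-449b are named without a sequence.

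The 3p arms are printed because they divide the miR-34 hairpins in another way, again with bases 2 to 8 in capitals.
miR-34a-3p: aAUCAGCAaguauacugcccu
miR-34b-3p: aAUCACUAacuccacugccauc
miR-34c-3p: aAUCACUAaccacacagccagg
miR-34b-3p and miR-34c-3p shared bases 2 to 8 with each other and with no other miRNA of the table, and differed at 5 of their 22 positions. The 3p arm of miR-34a had a different sequence there, which it shared with no other entry.

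The 6 hairpins lie at 3 places in the genome (GRCm38.p6, genes from GENCODE M21). Mir34a is at chr4:150068454-150068555 on the plus strand, inside no other gene, although its end overlaps an exon of Gm37795, a gene model that still awaits experimental evidence. Mir34c (chr9:51103034-51103110) and Mir34b (chr9:51103562-51103645) lie on the minus strand with 451 bases between them, in an intron of Btg4, which is transcribed from the opposite strand. Mir449c (chr13:113035983-113036091), Mir449b (chr13:113037419-113037498) and Mir449a (chr13:113037534-113037624) are on the plus strand in introns of Cdc20b, a gene of multiciliated cells, with 1327 and 35 bases between them.

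The deposited totals ranged from 8769851 to 18385985 counts per library, and 3 counts, the upper limit that a count of 0 allows, corresponded to between 0.163 and 0.342 CPM (counts scaled to a library of 1000000 counts). This limit and the confidence intervals cover counting error only, since the reads carry no molecular identifiers. Levels are given in CPM, scaled by TMM factors over all 13 libraries, and because reads of a miRNA made from several hairpins enter the total more than 1 time, they would be 1.53 to 1.74 times larger with 1 row per mature miRNA. TgR hippocampus replicates 1 and 3 stood apart from all other libraries in the summed level of choroid plexus miRNAs. They had 5150 and 4220 CPM, against 1260 CPM or less. The log2 differences of the miR-34b/c arms are also given without them. Group means and the likeness of profiles include them. The neuronal miRNAs were high in every group, miR-124-3p at 3980 to 6120 CPM and miR-9-5p at 57700 to 74200 CPM.

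All 6 hairpins were listed, but at very different levels. Both arms of mmu-mir-34a, mmu-mir-34b and mmu-mir-34c and the 5p arm of mmu-mir-449a had counts in all 13 libraries. The deepest rows were miR-34c-5p, with 502 to 13744 counts per library, and miR-34a-5p, with 655 to 2795. At the other end, miR-34a-3p had 1 to 9 counts, miR-449a-5p 4 to 42, miR-449c-5p at most 2 counts in 5 libraries, and miR-449b 1 count in 1 library. miR-449b, miR-449c-5p and miR-34a-3p did not pass the filter on low counts in any comparison, so 6 rows were tested at most. Without the filter none of these 3 rows passed the threshold in any comparison (adjusted p of 0.44 or more by the quasi-likelihood test of edgeR, adjusted after Benjamini and Hochberg).

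miR-34c-5p, the most abundant arm of the miR-34b/c pair, had 72.1, 70.6 and 69.8 CPM in the FVB/N PFC libraries and 81.2, 52.4, 81.0 and 78.8 CPM in the TgR PFC libraries. It had 119, 137 and 74.6 CPM in FVB/N hippocampus and 734, 347 and 688 CPM in TgR hippocampus. The 3 TgR hippocampal libraries were thus above every other library, and the lowest of them was 2.53 times the highest FVB/N library. Group means were 70.8 ± 1.18 CPM (SD, n = 3) in FVB/N PFC, 73.3 ± 14.0 CPM (n = 4) in TgR PFC, 110 ± 32.2 CPM (n = 3) in FVB/N hippocampus and 590 ± 212 CPM (n = 3) in TgR hippocampus.

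**Figure D1:**
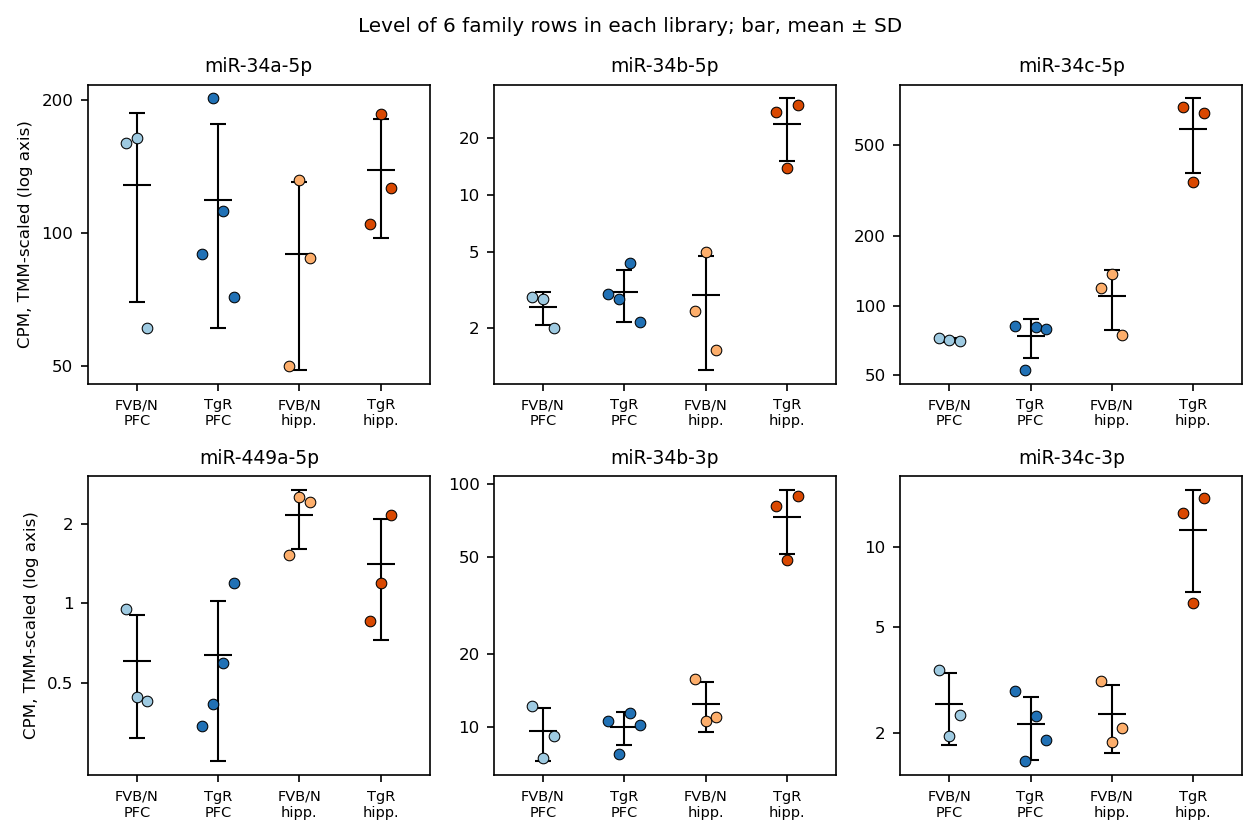
Level of 6 family rows in each of the 13 libraries, in CPM on a log axis (vertical) by genotype and region (horizontal; hipp., hippocampus). Points are libraries and bars the mean ± SD; all 4 arms of mir-34b and mir-34c had their 3 highest values in TgR hippocampus, whereas miR-34a-5p overlapped between all groups and miR-449a-5p was highest in FVB/N hippocampus.

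The partner arm miR-34c-3p was far lower, at 1.86 to 3.13 CPM in FVB/N hippocampus, 1.95 to 3.45 CPM in FVB/N PFC, 1.57 to 2.88 CPM in TgR PFC, and 13.4, 6.17 and 15.3 CPM in TgR hippocampus. From the neighboring hairpin, miR-34b-3p had 15.7, 10.6 and 10.9 CPM in FVB/N hippocampus and 81.4, 48.5 and 89.5 CPM in TgR hippocampus, against 7.44 to 12.1 CPM over the 7 PFC libraries. miR-34b-5p, the arm with the family seed, had 2.45, 4.98 and 1.53 CPM in FVB/N hippocampus and 27.5, 13.9 and 30.0 CPM in TgR hippocampus, against 1.99 to 4.36 CPM in the PFC. In each of these 3 rows replicate 2 was the lowest TgR hippocampal library, and in each it was still above all 10 libraries of the other groups.

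miR-34a-5p did not separate any groups. It had 50.1, 131 and 88.0 CPM in FVB/N hippocampus and 105, 185 and 127 CPM in TgR hippocampus. In the PFC it had 160, 164 and 61.1 CPM in FVB/N mice and 89.6, 202, 112 and 71.8 CPM in TgR mice. Its spread within groups was wide, with an SD of 45.4% of the mean in both FVB/N groups, 48.6% in TgR PFC and 29.9% in TgR hippocampus. The libraries with the most miR-34a-5p in TgR hippocampus and in TgR PFC, replicate 2 in each, were those with the least miR-34c-5p. The FVB/N groups did not show this. In FVB/N hippocampus replicate 2 had the most of both, and in FVB/N PFC miR-34c-5p stayed between 69.8 and 72.1 CPM.

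miR-449a-5p, the only miR-449 member with counts in all libraries, had 1.53, 2.52 and 2.41 CPM in FVB/N hippocampus and 0.855, 1.19 and 2.17 CPM in TgR hippocampus. In the PFC it had 0.951, 0.443 and 0.427 CPM in FVB/N mice and 0.343, 0.418, 0.594 and 1.19 CPM in TgR mice. The FVB/N hippocampal libraries were above all PFC libraries. In TgR hippocampus replicate 1 was inside the PFC range and the other 2 libraries at or above its top.

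The order of the group means differed between these members. For miR-34c-5p it ran from TgR hippocampus over FVB/N hippocampus and TgR PFC to FVB/N PFC, and the last 2 differed by less than the spread between libraries. For miR-34a-5p it ran from TgR hippocampus over FVB/N PFC and TgR PFC to FVB/N hippocampus, with every neighbor within 1 SD of the next. For miR-449a-5p it ran from FVB/N hippocampus over TgR hippocampus to TgR PFC and FVB/N PFC, and only the last step was smaller than 1 SD of the groups beside it.

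The make-up of the family's 5p arms followed these levels. miR-34a-5p contributed 45.8 to 68.9% of the family's 5p counts in FVB/N PFC, 46.7 to 78.4% in TgR PFC and 28.9 to 52.8% in FVB/N hippocampus. In TgR hippocampus it contributed 12.1% (95% exact binomial interval 11.6 to 12.6), 33.9% (32.9 to 34.9) and 15.0% (14.4 to 15.5), while miR-34c-5p contributed 84.6, 63.3 and 81.2%. The highest share of miR-34a-5p in a TgR hippocampal library was 5.02 percentage points above the lowest in an FVB/N one, so the groups overlapped in this share. The summed 5p level was 167 to 276 CPM in FVB/N hippocampus and 547 to 868 CPM in TgR hippocampus, and 133 to 258 CPM over all PFC libraries.

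**Figure D2:**
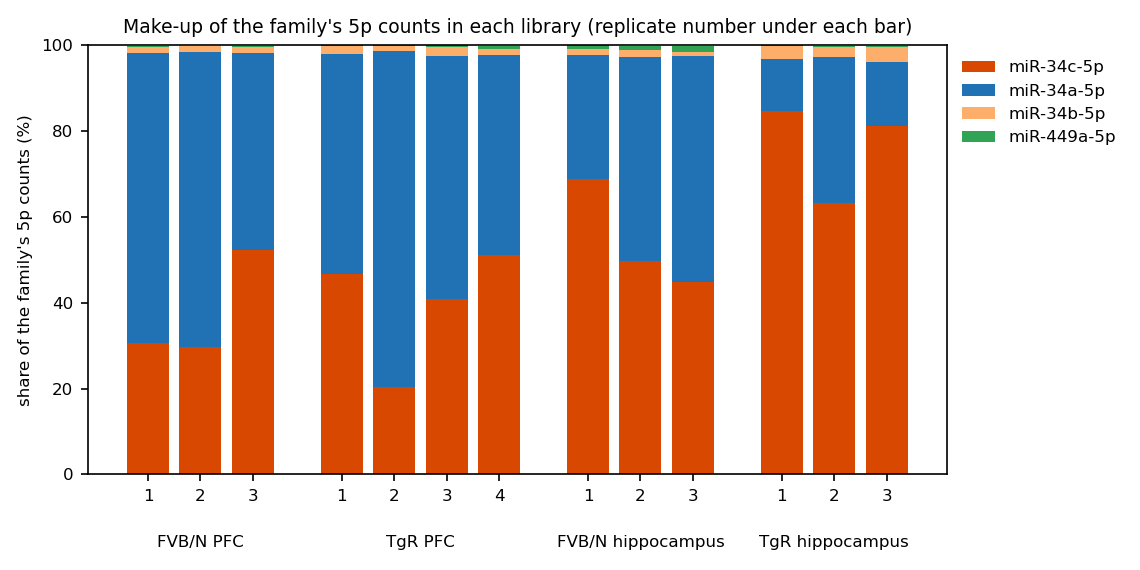
Share of each member in the family's 5p counts (vertical, percent, stacked to 100) in every library (horizontal, grouped by genotype and region). miR-34c-5p made up 63.3 to 84.6% in TgR hippocampus and 20.4 to 68.8% in the other libraries; miR-449b and miR-449c-5p are too low to be seen.

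Within the hairpins, the proportions stayed in narrow ranges. miR-34c-5p held 95.4 to 98.7% of the counts of mmu-mir-34c over the 13 libraries, and 97.8 to 98.2% in TgR hippocampus. For mmu-mir-34b the 3p arm, not the seed-carrying 5p arm, held most counts, 68.0 to 87.7% over all libraries and 74.8 to 77.7% in TgR hippocampus. mmu-mir-34b contributed 12.7, 15.0 and 14.5% of the counts of the 2 hairpins in TgR hippocampus, inside the range of 10.05 to 16.6% of the other libraries. The 2 hairpins therefore kept their ratio, within the spread between libraries, over a range of summed levels from 64.5 CPM (TgR PFC replicate 2) to 857 CPM (TgR hippocampus replicate 1). In mmu-mir-34a the 5p arm held 99.5 to 99.9% of the counts in every library.

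The hippocampal comparison asked which miRNAs differ in the hippocampus of mice with excess AChE-R. On the log2 scale the TgR libraries were higher by 2.97 (SE 0.45) for miR-34b-5p, 2.57 (SE 0.28) for miR-34b-3p, 2.42 (SE 0.34) for miR-34c-5p and 2.32 (SE 0.37) for miR-34c-3p, which is 5.01-fold to 7.81-fold. miR-34a-5p had a log2 difference of 0.62 (SE 0.34) and miR-449a-5p one of -0.61 (SE 0.36). Of the 6 family rows tested, 4 passed an adjusted p of 0.05 and 4 did not overlap between genotypes. Over all 726 rows tested, 3.44% passed and 24.7% did not overlap, but the family was chosen on this comparison and nothing is read from its counts. The family's median log2 difference was 2.37, against -0.003 over all rows. Without FVB/N hippocampus replicate 3, whose removal leaves 1 call among all rows, 0 family rows were called.

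The choroid plexus is the ciliated epithelium in the ventricles that secretes cerebrospinal fluid. The summed level of its miRNAs was high in TgR hippocampus replicates 1 and 3. The 13 listed rows of 7 choroid plexus hairpins summed to 1260 CPM in TgR hippocampus replicate 2, to 847 to 1240 CPM in FVB/N hippocampus and to 569 to 927 CPM in the PFC. In the hippocampal comparison 3 of the 10 tested rows of this list were called (miR-1298-5p, miR-1264-3p and miR-448-3p), all higher in TgR mice, and the median log2 difference was 1.37. Of its defining markers, miR-204-5p and miR-1298-5p were abundant, none was at 0, and miR-211-5p stayed between 0.719 and 6.97 CPM in all libraries. In TgR hippocampus replicates 1 and 3 miR-211-5p was 1.41 and 1.61 times the FVB/N hippocampal mean. The miR-764 rows stayed near or below that mean there, miR-764-5p at 1.04 and 0.845 times and miR-764-3p at 0.817 and 0.807 times. In bulk tissue a larger share of a cell type and more RNA per cell cannot be told apart.

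In TgR hippocampus replicate 2 some rows of the choroid plexus list lay above the FVB/N hippocampal mean and others near or below it. In this library miR-1298-5p was at 190 CPM, 1.36 times the FVB/N hippocampal mean, and miR-204-5p at 984 CPM, 1.2 times that mean and below the highest FVB/N library, at 1030 CPM. Further up in it were miR-1264-3p, at 1.74 times, and miR-448-3p, at 3.03 times the FVB/N mean (6.84 against 2.26 CPM). Near that mean were miR-1264-5p, at 1.04 times, miR-1298-3p, at 1.13 times, and miR-204-3p, at 1.17 times. Below it were miR-448-5p, at 0.71 times, miR-764-5p, at 0.877 times, and miR-764-3p, at 0.87 times. In the same library miR-34c-5p was 3.14, miR-34b-3p 3.91, miR-34b-5p 4.65 and miR-34c-3p 2.62 times the FVB/N mean. In replicates 1 and 3, by contrast, miR-1298-5p was 12.3 and 8.81 times that mean and miR-34c-5p 6.66 and 6.23 times. With replicates 1 and 3 left out together, the log2 differences were 1.94 for miR-34b-3p, 2.14 for miR-34b-5p, 1.62 for miR-34c-5p and 1.37 for miR-34c-3p, and with 1 TgR library left no family row was called.

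TgR PFC replicate 4 had 215 CPM of miR-1298-5p, more than TgR hippocampus replicate 2, and 78.8 CPM of miR-34c-5p, against 347 CPM in that hippocampal library. The list was not higher as a whole in the PFC library of this pair. miR-1264-3p was higher, at 52.8 against 33.6 CPM, but miR-204-5p was lower, at 589 against 984 CPM, as were miR-448-3p, at 4.2 against 6.84 CPM, and the summed list, at 927 against 1260 CPM. Its miR-34c-5p lay among the 3 other TgR PFC libraries, which had 58.6 to 110 CPM of miR-1298-5p. The part of choroid plexus tissue in the hippocampal levels of miR-34b/c was not tested.

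**Figure D3:**
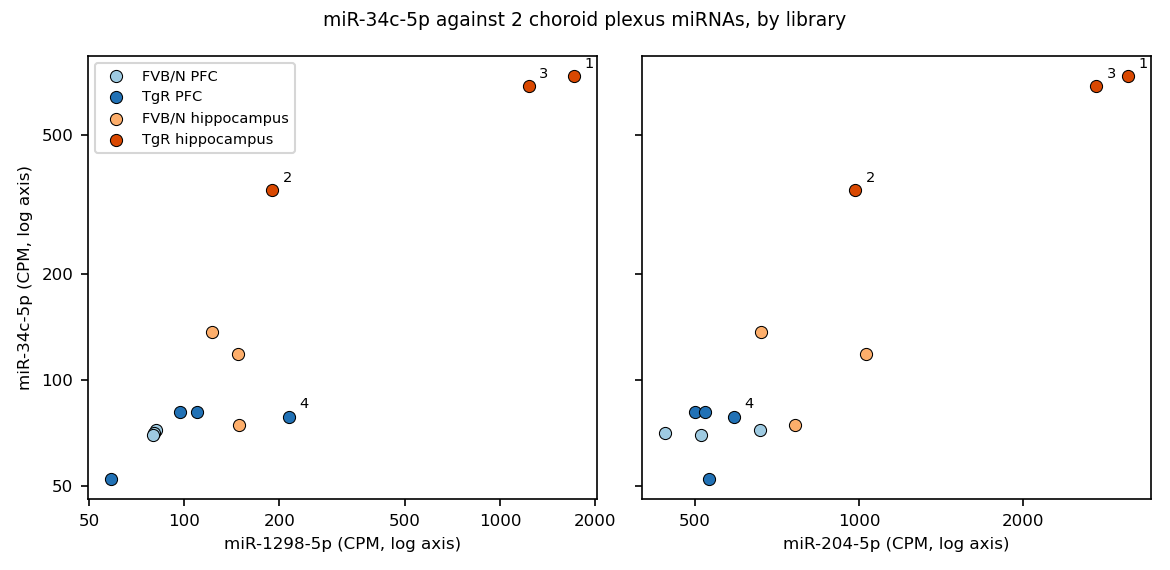
miR-34c-5p (vertical, CPM, log axis) against the choroid plexus miRNAs miR-1298-5p (left) and miR-204-5p (right; horizontal, CPM, log axes), with a point for each library and replicate numbers beside the TgR hippocampal libraries and TgR PFC replicate 4. TgR hippocampus replicate 2 had 347 CPM of miR-34c-5p at 190 CPM of miR-1298-5p, and TgR PFC replicate 4 had 78.8 CPM at 215 CPM; for miR-204-5p the same libraries were at 984 and 589 CPM.

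Markers of other cells were also compared. The red blood cell list was lower in TgR hippocampus, at 486 to 657 CPM against 1060 to 1180 CPM in FVB/N mice, with 2 of 5 tested rows called lower, and the epithelial list (the miR-200 family with miR-141 and miR-429) was at 30.7 to 129 CPM against 89.6 to 417 CPM, with 1 of 5 called lower. Their part in the values of the family was not tested. The miRNAs tied to p53 besides miR-34, 18 listed rows of 9 hairpins, had 0 of 13 tested rows called in either direction, and a median log2 difference of -0.09.

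The PFC comparison used 4 TgR and 3 FVB/N libraries that the hippocampal comparison did not use. Its values also entered the difference between the regions, which was known when the family was chosen, so they too are a description and no independent test. None of the 5 tested family rows passed the threshold, none had an unadjusted p under 0.05, none was called by DESeq2, and none separated the genotypes. Over all 730 rows, 1 was called (0.137%), 19 had an unadjusted p under 0.05 and 5.07% separated the genotypes, so the PFC gave few calls for any miRNA. miR-34c-5p, at 73.3 CPM in TgR and 70.8 CPM in FVB/N mice, had a log2 difference of 0.02 (SE 0.16, 95% interval -0.35 to 0.39). For miR-34b-3p the difference was 0.02 (SE 0.23, interval -0.51 to 0.55), for miR-34b-5p 0.23 (SE 0.30, interval -0.45 to 0.91) and for miR-34c-3p -0.30 (SE 0.29, interval -0.97 to 0.37). Each of these 4 intervals lies within a log2 difference of 1 in either direction.

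miR-34a-5p in the PFC had a log2 difference of -0.12 (SE 0.45) with an interval from -1.13 to 0.89. Differences inside this range are compatible with these data. miR-449a-5p had too few counts for the test in this region. Without the filter its log2 difference was 0.01 (SE 0.50). In the PFC 0 of 10 tested choroid plexus rows and 0 of 13 tested rows of the p53 list were called, with medians of 0.27 and 0.04, as were 0 of 5 epithelial and 0 of 5 red blood cell rows.

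The difference between the regions in the effect of genotype, fitted over all 13 libraries, is another measure that was known when the family was chosen. The hippocampal minus the PFC effect on the log2 scale was 2.71 (SE 0.55) for miR-34b-5p, 2.57 (SE 0.49) for miR-34c-3p, 2.50 (SE 0.36) for miR-34b-3p and 2.37 (SE 0.38) for miR-34c-5p. It was 0.74 (SE 0.60) for miR-34a-5p and -0.68 (SE 0.67) for miR-449a-5p. Among 751 tested rows edgeR called 4 (0.533%), those of mmu-mir-34b and mmu-mir-34c. DESeq2 called 26 rows, these 4 among them. The family was chosen on this difference, so nothing is read from its calls, by either tool or with libraries left out. Of the choroid plexus list 0 of 10 tested rows were called, but its median difference was 1.39, against 0.008 over all rows. Its rows ranged from -0.17 (SE 0.66) for miR-764-5p to 3.18 (SE 0.80) for miR-448-3p, with 2.32 (SE 0.76) for miR-1298-5p. In the family, 2 rows were called without FVB/N PFC replicate 1, TgR PFC replicate 4 or FVB/N hippocampus replicate 3. The same number was called without TgR hippocampus replicate 1 or TgR hippocampus replicate 3. Without any other single library, 3 or 4 were called. Leaving out TgR hippocampus replicates 1 and 3 together left a single library in that group. The differences were then 1.93 for miR-34b-5p, 1.65 for miR-34c-3p, 1.91 for miR-34b-3p and 1.59 for miR-34c-5p.

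**Figure D4:**
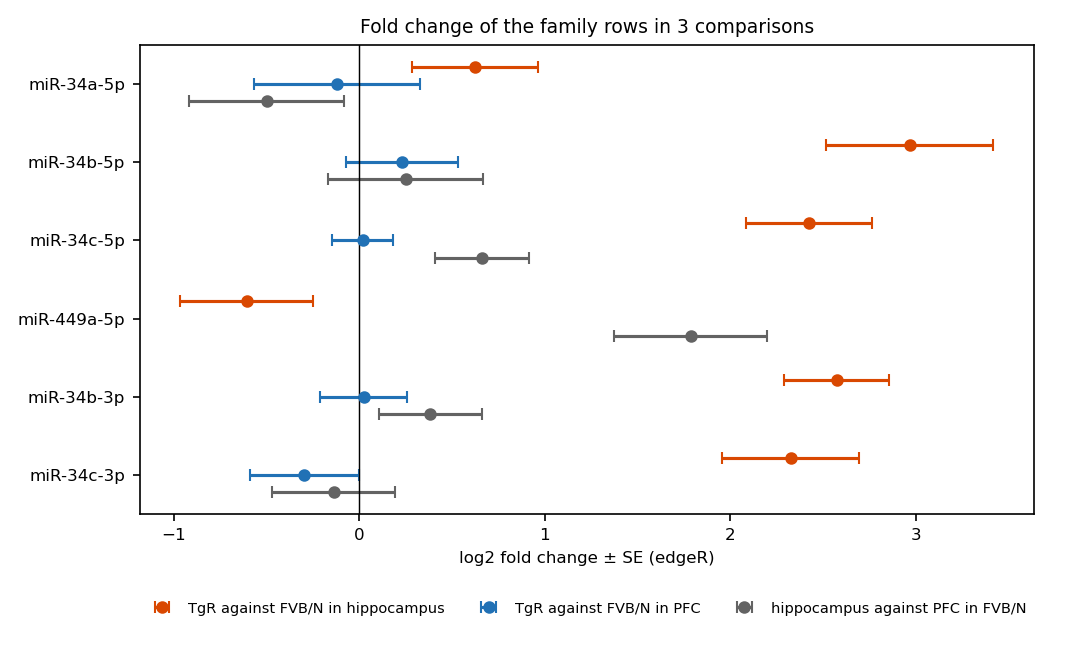
Log2 fold change (horizontal, points, with bars of 1 SE) of the tested family rows in 3 comparisons, each fitted by itself with edgeR. The 4 arms of mir-34b and mir-34c lie between 2.32 and 2.97 for TgR against FVB/N in hippocampus and between -0.30 and 0.23 in PFC; miR-449a-5p has no point for the PFC, where it was too low to be tested.

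The comparison of hippocampus with PFC in FVB/N mice asked how the members differ between the regions without the transgene. It shares its 3 hippocampal libraries with the hippocampal comparison of genotypes, and all 6 of its libraries entered the difference between the regions, so its p-values are not independent of the choice of the family. miR-449a-5p was 3.45-fold higher in hippocampus, at 2.15 ± 0.543 CPM (SD, n = 3) against 0.607 ± 0.298 CPM (n = 3), a log2 difference of 1.79 (SE 0.41, 95% interval 0.88 to 2.70, adjusted p = 0.043 by the quasi-likelihood test of edgeR). All 3 hippocampal libraries were above all 3 PFC libraries. The row rests on 92 counts in hippocampus and 27 in PFC, and under the alternatives its adjusted p lay between 0.000863 and 0.222. By the same edgeR test it was above 0.05 without FVB/N PFC replicate 2 (0.106), FVB/N hippocampus replicate 2 (0.222) or FVB/N hippocampus replicate 3 (0.113). It was also above 0.05 with scaling by library size only (0.0631) and with a block for the replicate number (0.0713).

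Some epithelial miRNAs were also higher in FVB/N hippocampus than in FVB/N PFC. Their summed level was 89.6, 417 and 356 CPM in FVB/N hippocampus, where miR-449a-5p was at 1.53, 2.52 and 2.41 CPM, and 33.1, 77.9 and 94.0 CPM in FVB/N PFC, where it was at 0.951, 0.443 and 0.427 CPM. Of the 6 tested epithelial rows, 2 were called higher in hippocampus, both arms of miR-200a, and the list's median log2 difference was 2.17. The others did not all lie in this direction, with log2 differences of -1.65 for miR-141-3p and -1.35 for miR-200c-3p, neither called. The part of these cells in the level of miR-449a-5p was not tested. In TgR hippocampus the library with the most miR-449a-5p (replicate 3, 2.17 CPM) had the lowest epithelial level of the group, 30.7 CPM. The same held for FVB/N PFC (replicate 1, 0.951 and 33.1 CPM) and TgR PFC (replicate 4, 1.19 and 19.1 CPM). In FVB/N hippocampus replicate 2 had the most of both.

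The 5 other tested family rows did not pass the threshold between the regions. miR-34c-5p, at 110 CPM in hippocampus and 70.8 CPM in PFC, had a log2 difference of 0.66 (SE 0.25, 95% interval 0.10 to 1.22, adjusted p = 0.23 by the same test), although its 3 hippocampal values were above the 3 PFC values. The differences were 0.38 (SE 0.28) for miR-34b-3p, 0.25 (SE 0.42) for miR-34b-5p, -0.14 (SE 0.33) for miR-34c-3p and -0.50 (SE 0.42) for miR-34a-5p. The family thus had 1 of 6 tested rows called, beside 3.34% of 718 rows overall and 2.09% called higher in hippocampus, and DESeq2 also called 1. The family's median was 0.32, against -0.003 over all rows. In this comparison 1 of 10 tested choroid plexus rows was called higher in hippocampus, and 0 of 5 red blood cell rows and 0 of 13 rows of the p53 list were called.

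Outside the family, the rows most like the sum of the 4 miR-34b/c arms were sought among 640 mature miRNAs, by the root mean square (RMS) difference of their log2 CPM profiles over the 13 libraries, each centered on its own mean. The closest 5 were miR-204-5p (RMS 0.525), miR-1298-5p (0.59), miR-448-3p (0.611), miR-204-3p (0.628) and miR-1264-3p (0.656), all arms of hairpins on the choroid plexus list. The median over the 640 was 1.27 and the miR-34b/c profile itself had an RMS of 1.23 about its mean. This likeness is a description over 13 libraries, and all profiles share the scaling of these libraries. They include TgR hippocampus replicates 1 and 3, in which the miR-34b/c sum and all 5 rows were highest. All 4 miR-34b/c arms were closer to the sum, which contains them, with an RMS from 0.0369 (miR-34c-5p) to 0.459 (miR-34c-3p), whereas miR-449a-5p (1.14) and miR-34a-5p (1.3) were about as far from it as the median miRNA. By group, miR-204-5p had means of 537 CPM in FVB/N PFC, 535 CPM in TgR PFC, 819 CPM in FVB/N hippocampus and 2280 CPM in TgR hippocampus.

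For miR-34a-5p, a profile chosen after its values were seen, the closest rows were miR-30b-5p (RMS 0.238), miR-15a-5p (0.284), miR-322-5p (0.317), miR-190a-5p (0.327) and miR-29a-5p (0.333). miR-15a-5p is a member of the p53 list. None of the 5 is an arm of a choroid plexus hairpin, and miR-30b-5p, the nearest, had group means of 492 CPM in FVB/N PFC, 537 CPM in TgR PFC, 389 CPM in FVB/N hippocampus and 578 CPM in TgR hippocampus.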

How the data were processed

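Small RNA was sequenced from 300 ng of total RNA per mouse (RNA integrity 8.6 to 9.3). The authors ran FastQC and miRExpress (against miRBase) on the reads and deposited, per library, unnormalized counts for each pair of hairpin and mature miRNA. Pairs not listed were taken as 0. Groups and replicate numbers came from the titles.

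Counts were fitted with edgeR 4.0.16 in R 4.3.3 (TMM, filterByExpr with a minimum of 10 counts, quasi-likelihood test, Benjamini-Hochberg adjustment over all tested rows, threshold 0.05), each comparison by itself, and checked on simulated counts. CPM are TMM-scaled, and likeness used log2(CPM + 0.5). All family rows are named, with the 5 rows most like miR-34b/c, a p53 list and marker lists of choroid plexus, epithelial and red blood cells and neurons. Members and lists were chosen with earlier results of these data known. Alternatives were DESeq2 1.42.0, its size factors, library size only, no filter, 1 row per mature miRNA, all libraries in one fit, libraries left out, and a block for the replicate number. P-values measure only the spread between these mice. Sequences and positions came from RefSeq and GENCODE, matched by name.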

Additional observations from a re-analysis of the deposited data

Results flagged for a closer look

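Among the 4 TgR PFC libraries, 25 levels and shares were checked for a library far from the others, and 2 were marked. Those of miR-449b and miR-449c-5p, at 0 in all 4, could not be marked, and many of the others share counts. The rate of about 1 in 20 that chance gives for a single group therefore does not carry over to the 25. miR-34c-5p was low in TgR PFC replicate 2, at 52.4 CPM against 78.8 to 81.2 CPM in the other 3, and this library had the fewest counts of the series (8769851). The summed level of the red blood cell miRNAs was high in 1 TgR PFC library, at 2200 CPM, against a median of 1400 CPM in the group.

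The effect of genotype differed between the regions for the 4 arms of mir-34b and mir-34c, with a hippocampal minus PFC log2 difference of 2.71 (miR-34b-5p), 2.57 (miR-34c-3p), 2.5 (miR-34b-3p) and 2.37 (miR-34c-5p). The family was chosen with this difference known, so it is a description. The summed level of the choroid plexus miRNAs was high in TgR hippocampus replicates 1 and 3. Without these 2 libraries a single TgR hippocampal library was left. The differences were then 1.93 (miR-34b-5p), 1.65 (miR-34c-3p), 1.91 (miR-34b-3p) and 1.59 (miR-34c-5p).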

How the results depend on the processing

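The PFC comparison gave 1 call, and 0 in the family, under all alternatives. In the hippocampal comparison (25 calls, 4 in the family) DESeq2 gave 54 calls, no filter 63, the replicate block 9 (2 in the family), and leaving out TgR hippocampus replicates 1 and 3 together 1 (0 in the family). With 1 library left out, 1 to 28 rows were called there, and 0 to 4 of the family. The lowest values came without FVB/N hippocampus replicate 3, and 12 and 9 rows were called without FVB/N hippocampus replicate 1 and TgR hippocampus replicate 3. For hippocampus against PFC in FVB/N mice (24 calls, 1 in the family) no filter gave 56 and all 13 libraries in one fit 40. The call of miR-449a-5p was lost with library size only and with the replicate block (0 family rows each). Leaving out 1 library gave 4 to 51 calls, and 0 to 1 in the family. For the difference between regions (4 calls, all in the family) DESeq2 gave 26, no filter 13 and leaving out both TgR hippocampal libraries 0 (0 in the family), and leaving out 1 library gave 2 to 8, with 2 to 4 in the family. Causes were not tested.

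Changes of sign touched only differences that no test called. In the PFC, library size only gave log2 differences of -0.026 for miR-34b-3p and -0.023 for miR-34c-5p, and the replicate block 0.10 for miR-34a-5p and -0.030 for miR-34c-5p. With 1 library left out, the PFC differences ranged from -0.55 to 0.090 for miR-34a-5p, from -0.13 to 0.26 for miR-34b-3p, from -0.013 to 0.39 for miR-34b-5p and from -0.059 to 0.13 for miR-34c-5p, and the FVB/N region differences from -0.37 to 0.57 for miR-34b-5p and from -0.37 to 0.15 for miR-34c-3p.

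The replicate numbers were not taken to pair the mice. Deviations of same-numbered libraries correlated at -0.114 to 0.159 in hippocampus, -0.299 to 0.48 in PFC, 0.0545 to 0.202 between the FVB/N regions and -0.183 to 0.472 between the TgR regions. The deposited FVB/N PFC data also carry a numbering other than that of the titles. Over all alternatives, 85 counts of calls stayed near the count of the main fit, though often not equal to it, and 37 moved further. Of the log2 differences, 293 kept their sign and their side of the threshold, 40 were no longer called and 19 changed sign. Among levels and shares, 265 stayed within 1 SD of the group mean. Another 26 levels moved, all by the larger scale of 1 row per mature miRNA. Few mice per group limit all comparisons, and counts limit miR-449a-5p, miR-449b, miR-449c-5p and miR-34a-3p.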
